A study of Mus musculus with 12 samples.

Results

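Entpd4, Entpd4b, Gm21451 and Loxl2 are 4 of the 14244 genes in the expression table, and they lie next to each other in a duplicated stretch of mouse chromosome 14. They were chosen by name, with the difference between genotypes in these libraries already known, so every genotype difference given for them is a description without a test. RNA from gut epithelial cells of 5 wild-type (WT) mice and 7 Chd8L+/- mice was sequenced, with a separate library for each mouse. All mice were C57BL/6 male littermates 8 weeks of age. The Chd8L+/- mice carried 1 germline Chd8 allele from which some of the exons were deleted, in every cell type and not only in the gut, and WT mice carried no deletion. Cells were shaken off the intestine and collected as a pellet without sorting, so other cells of the gut wall could be present.

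Entpd4 encodes an ecto-nucleoside triphosphate diphosphohydrolase that sits in membranes of the Golgi and related vesicles, where it cleaves nucleoside diphosphates such as UDP. UDP is left over when sugars are added to proteins and lipids, and its product UMP leaves the Golgi in exchange for new nucleotide sugars. In the gut this family includes further enzymes that act on nucleotides at the cell surface or inside the cell. Loxl2 encodes a secreted, copper-dependent lysyl oxidase that cross-links collagen and is known mainly from fibroblasts, endothelial cells and tumour cells.

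The members followed each other on the plus strand in the order Entpd4, Gm21451, Entpd4b and Loxl2. In the GENCODE M21 annotation of GRCm38, the build that mm10 names, Entpd4 (ENSMUSG00000095463.8) extended from 69337174 to 69367270 and Gm21451 (ENSMUSG00000094526.1) from 69390854 to 69480287. Entpd4b (ENSMUSG00000022066.16) extended from 69555424 to 69585520 and Loxl2 (ENSMUSG00000034205.16) from 69609068 to 69695834. The 4 genes thus filled a stretch of 359 kb that began 17.1 Mb beyond the end of Chd8. Entpd4b began 218250 bases after Entpd4, and Loxl2 began 218214 bases after Gm21451, so the pair of Entpd4b and Loxl2 repeats the pair of Entpd4 and Gm21451. GENCODE classes Gm21451 as an unprocessed pseudogene, and its class in other annotations was not examined. The map of the stretch also shows genes on the opposite strand: Gm16867 overlaps Entpd4 and Gm21451, and Gm27177 overlaps Entpd4b and Loxl2. None of the genes that overlap a member had a row in the table, and whether strand was used in counting is not given in the sources used here.

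**Figure D1:**
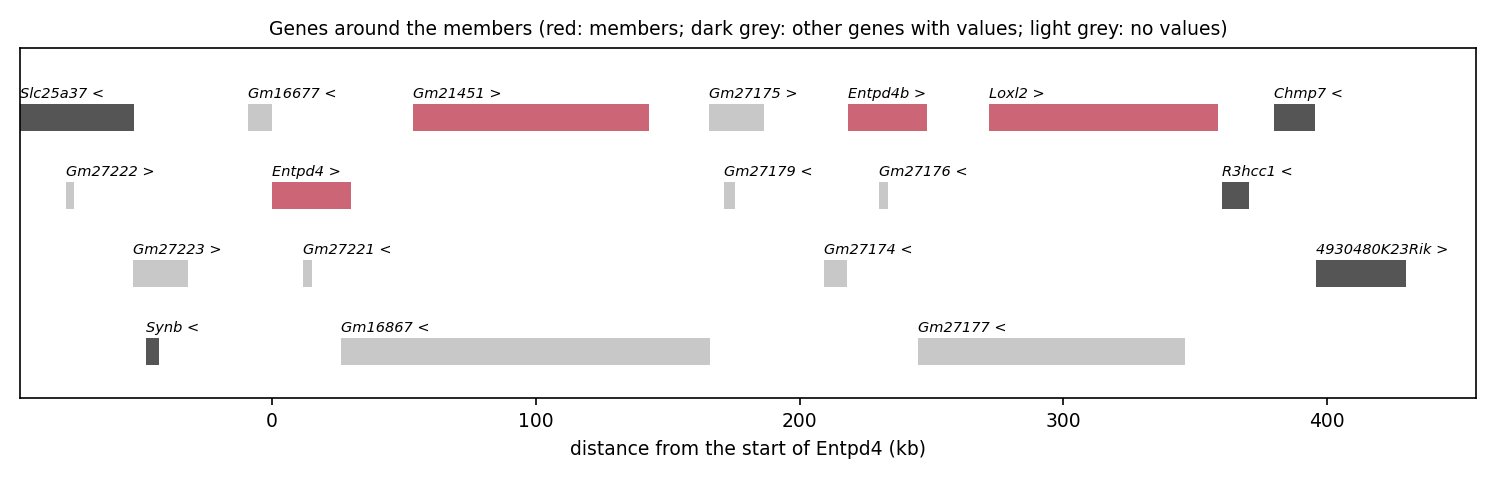
Genes around the members by distance from the start of Entpd4 in kb, with an arrowhead for the strand and with short unconfirmed gene models and the microRNA gene left out. Red bars are the 4 members, dark grey bars are other genes with values and light grey bars are genes without values; Entpd4b and Loxl2 repeat the order of Entpd4 and Gm21451 about 218 kb further on.

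Within each pair, the transcripts were compared to see which reads could be assigned to 1 gene. The Entpd4 copies have the same exon length, 8074 bases, and all 5 Entpd4b transcripts were identical over their whole length to 1 of the 6 Entpd4 transcripts. A read of 75 bases, the length sequenced here, could come from either copy at 8281 of 8281 positions (100%). The first 120 coding bases of Entpd4 (chr14:69347587-69349184, plus strand, across an intron) and Entpd4b (chr14:69565837-69567434), from transcripts of 3589 bases each, are shown because 0 bases differ between them, with the start codon in capitals:

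Entpd4: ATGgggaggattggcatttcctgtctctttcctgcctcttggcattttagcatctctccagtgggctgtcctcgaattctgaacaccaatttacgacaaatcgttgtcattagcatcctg

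Entpd4b: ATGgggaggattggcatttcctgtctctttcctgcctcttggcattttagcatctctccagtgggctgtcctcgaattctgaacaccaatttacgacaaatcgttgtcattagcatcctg

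Gm21451 and Loxl2 were copies over part of their length only. The Gm21451 transcript (2775 bases, 14 exons) and a Loxl2 transcript (3042 bases, 14 exons) shared an identical run of 2182 bases, or 78.6% of the first and 71.7% of the second. The run held 11 whole exons of Gm21451. Over all transcripts, 2274 of the 2701 windows of 75 bases of Gm21451 (84.2%) also occurred in Loxl2, but only 2274 of the 5331 windows of Loxl2 (42.7%) occurred in Gm21451. With every other annotated gene counted, 2627 windows of Gm21451 (97.3%) were shared and 74 were its own. The place where the run ends is shown, since reads beyond it can be told apart. It lies at chr14:69471936-69477455 for Gm21451 and chr14:69690211-69692373 for Loxl2, both on the plus strand and across introns. Capitals mark the last 60 bases of the shared run, and 46 of the 60 bases that follow in lower case differ:

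Gm21451: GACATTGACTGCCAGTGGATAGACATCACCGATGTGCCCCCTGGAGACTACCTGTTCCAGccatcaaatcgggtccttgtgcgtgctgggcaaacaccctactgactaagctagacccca

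Loxl2: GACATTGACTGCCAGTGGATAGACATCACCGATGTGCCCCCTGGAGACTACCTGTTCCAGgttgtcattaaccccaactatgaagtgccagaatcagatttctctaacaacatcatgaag

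How the authors divided reads between identical copies is not given in the sources used here. The values of single copies are therefore uncertain, and each pair is also given as a sum.

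Values are normalized counts, that is, reads on a gene divided by the size factor of the library, and 1 read was worth between 0.864 and 1.25 normalized counts. The libraries held between 15691662 and 20761315 reads on genes. Chd8, the targeted gene, was at 953 ± 85.5 (SD, n = 5) for WT and 1297 ± 123 (SD, n = 7) for Chd8L+/- mice, without overlap (limma adjusted p = 0.121), and counts over the whole gene cannot show the deleted exons. WT replicate 2 lay among the Chd8L+/- libraries on the first principal component, at 41.0 against 0.26 to 42.7, while the other 4 WT libraries lay between -67.5 and -26.2. The epithelial markers Epcam, Vil1, Cdh1, Krt8, Krt19, Krt20 and Lgals4 were all present in the table, and their summed normalized count was between 184749 and 303522 in WT and between 174696 and 298418 in Chd8L+/- libraries.

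Entpd4, the first copy, was higher in Chd8L+/- than in WT epithelial cells. Its normalized count in WT replicates 1 to 5 was 177, 250, 181, 288 and 191. In Chd8L+/- replicates 1 to 7 it was 343, 349, 413, 386, 353, 328 and 241. WT replicates 2 and 4 were the high WT libraries, Chd8L+/- replicate 7 was the low Chd8L+/- library, and 6 of the 7 Chd8L+/- libraries lay above every WT library. The means were 217 ± 49.0 (SD, n = 5) and 345 ± 54.1 (SD, n = 7), a 1.59-fold difference. The log2 fold change from limma on log2(normalized count + 1), a scale on which genes with few reads appear to change less, was 0.67 ± 0.16 (SE). In RNA from bulk cells, more cells that express a gene and more RNA per cell cannot be told apart, and this holds for all values here.

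Entpd4b, the second copy, had higher values than Entpd4 in every library and the same order of WT libraries. In WT replicates 1 to 5 its normalized count was 261, 344, 268, 429 and 269.6. Chd8L+/- replicates 1 to 7 held 472, 475, 582, 622, 651, 478 and 364. Replicate 4 was again the highest WT library and replicate 7 again the lowest Chd8L+/- library, and the genotypes overlapped only through this pair. The means were 315 ± 72.6 (SD, n = 5) and 520.3 ± 102 (SD, n = 7), with a ratio of 1.65 and a log2 fold change of 0.73 ± 0.17 (SE). The ratio of Entpd4b to Entpd4 was 1.45 ± 0.0495 (SD, n = 5) for WT and 1.51 ± 0.171 (SD, n = 7) for Chd8L+/- mice, and its range over the 12 libraries was 1.36 to 1.84. Chd8L+/- replicate 5 had the highest ratio. In the annotated transcripts, 0 windows of 75 bases belong to 1 of these copies alone. The ratio therefore cannot show which copy was expressed more, and how reads were assigned is not given.

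**Figure D2:**
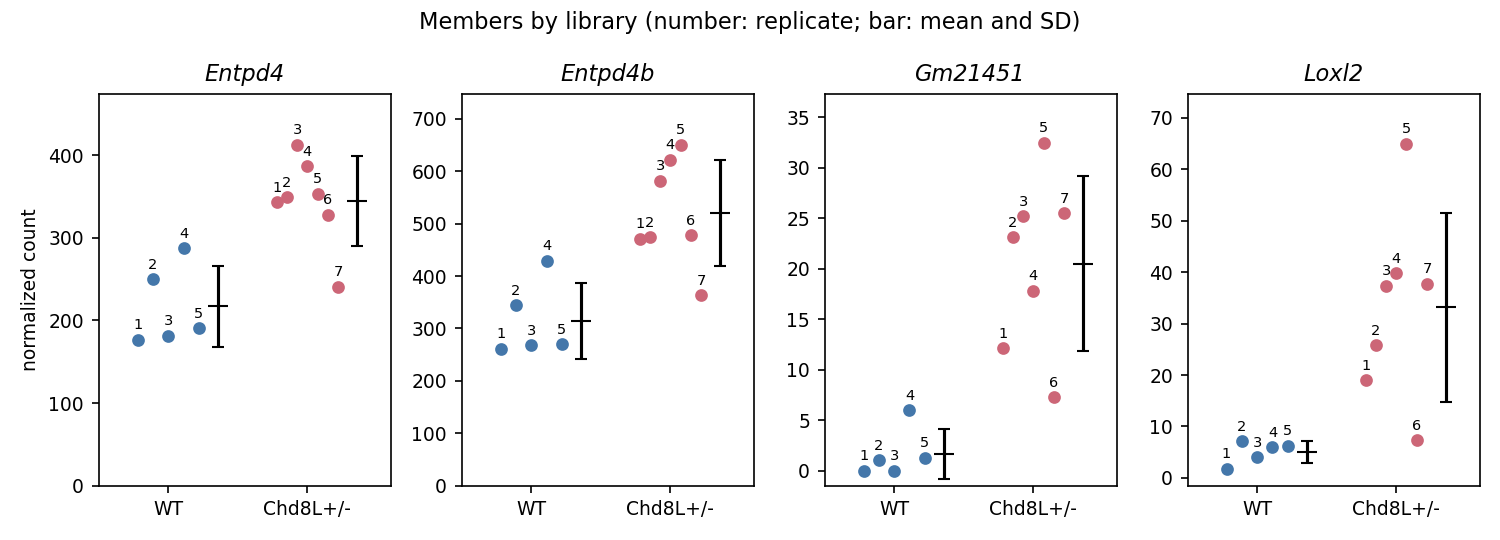
Normalized counts of the 4 members in each library, with the replicate number above each point, and the mean and SD of each genotype as a black bar (WT, n = 5; Chd8L+/-, n = 7). Chd8L+/- replicate 7 falls within the WT range for Entpd4 and Entpd4b, and no Chd8L+/- library falls within it for Gm21451 and Loxl2.

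The sum of the Entpd4 copies does not depend on how counted reads were split between them. It was 438, 594, 449.7, 717 and 460.2 in WT replicates 1 to 5, from 2614 reads in all. In Chd8L+/- replicates 1 to 7 it was 814, 824, 994, 1008, 1004, 806 and 605, from 6286 reads. WT libraries 1, 3 and 5 lay close together, Chd8L+/- libraries 3, 4 and 5 lay close together near the top, and the only overlap was Chd8L+/- replicate 7, at 605, which lay below WT replicate 4 at 717. The mean sum was 532 ± 121 (SD, n = 5) for WT and 865 ± 148 (SD, n = 7) for Chd8L+/- mice, a 1.63-fold difference with a log2 fold change of 0.71 ± 0.16 (SE). Without WT replicate 2 and without any other single library, the log2 fold change stayed between 0.65 and 0.82.

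The letter that opens a library name, whose meaning the labels do not give, went along with the level of the Entpd4 copies in Chd8L+/- libraries. The 3 Chd8L+/- libraries of letter C lay between 806 and 824, those of letters A and B (2 and 1 libraries) between 994 and 1008, and the 1 of letter D at 605. WT libraries of 1 letter were further apart, as letter B held 717 and 460.2. Within letter A the mean sum was 516 in 2 WT and 1001 in 2 Chd8L+/- libraries. Within letter B it was 589 in 2 WT libraries and 1004 in 1 Chd8L+/- library, and within letter C it was 449.7 in 1 WT library and 815 in 3 Chd8L+/- libraries. In letters A, B and C the Chd8L+/- libraries lay above the WT libraries, with few libraries in each letter. How many of all genes do the same was not computed, so nothing is read from it. Letter D, which held the only Chd8L+/- library that overlapped WT, had no WT library beside it.

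**Figure D3:**
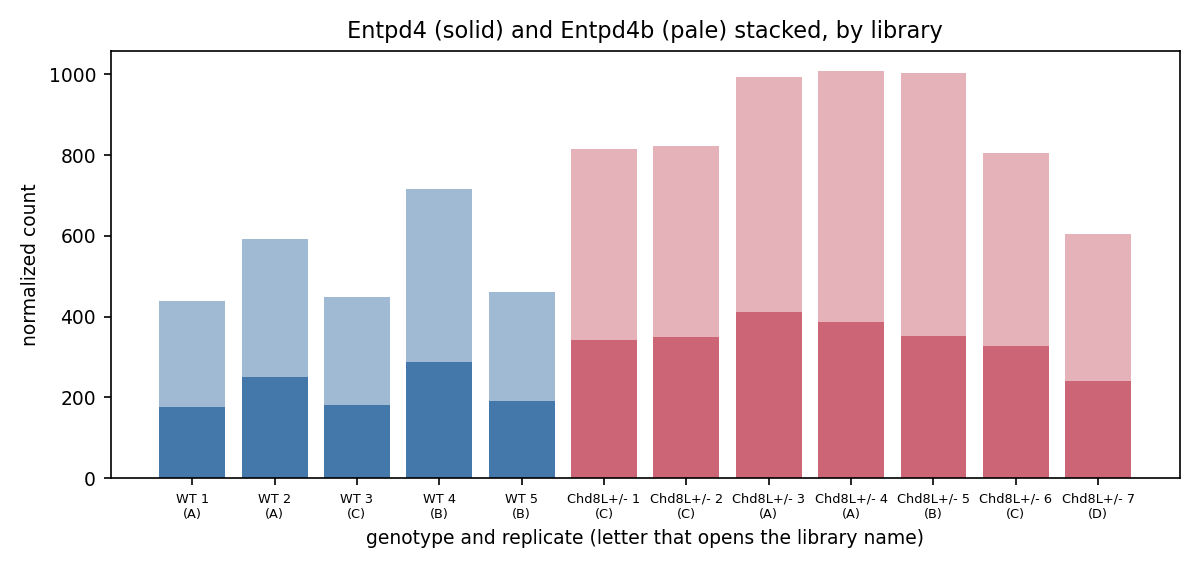
Normalized counts of Entpd4 (solid) and Entpd4b (pale) stacked for each library, with WT in blue, Chd8L+/- in red and the letter of the library name in brackets. Chd8L+/- replicate 7, at 605, is the only Chd8L+/- library below WT replicate 4, at 717.

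Gm21451, the partial copy of Loxl2, was near the limit of detection in WT and had reads assigned to it in every Chd8L+/- library. Only 74 of its 2701 windows of 75 bases are its own and how reads were assigned is not given, so these reads cannot show that Gm21451 itself was expressed. WT replicates 1 to 5 held 0, 1, 0, 6 and 1 reads, or normalized counts of 0, 1.01, 0, 5.95 and 1.25. Chd8L+/- replicates 1 to 7 held 14, 26, 27, 17, 31, 8 and 23 reads, or normalized counts of 12.1, 23.1, 25.2, 17.8, 32.5, 7.28 and 25.5. A count of 0 in a library allows up to 3 reads by counting error alone, and WT replicate 4 and Chd8L+/- replicate 6 differed by 2 reads only. The groups did not overlap, with means of 1.64 ± 2.47 (SD, n = 5) and 20.5 ± 8.66 (SD, n = 7), a ratio of 12.5 that rests on 8 WT reads. Of these, 6 were in WT replicate 4, and without that library the WT mean was 0.567 and the ratio 36.1. The log2 fold change was 3.30 ± 0.54 (SE) with 1 added to each value, and it was 1.92 with 5 added.

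Loxl2 itself, the lysyl oxidase, was also low in WT and higher in Chd8L+/- libraries. WT replicates 1 to 5 had 2, 7, 4, 6 and 5 reads, or normalized counts of 1.78, 7.10, 4.03, 5.95 and 6.27. Chd8L+/- replicates 1 to 7 had 22, 29, 40, 38, 62, 8 and 34 reads, or normalized counts of 19.0, 25.8, 37.3, 39.8, 65.0, 7.28 and 37.7. Replicate 6, the lowest Chd8L+/- library, lay just above WT replicate 2, at 7.28 against 7.10, and the other 6 lay well above the WT range. The means were 5.03 ± 2.14 (SD, n = 5) and 33.1 ± 18.3 (SD, n = 7), with a ratio of 6.59 and a log2 fold change of 2.37 ± 0.48 (SE).

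Gm21451 took 40.2% ± 6.85 (SD, n = 7) of the reads of the pair in Chd8L+/- libraries, with a range of 30.9% to 50%. In WT this share was 0%, 12.5%, 0%, 50% and 16.7%, on between 2 and 12 reads a library. As most windows of Gm21451 are shared with other genes, this share cannot show how much of the pair came from Gm21451. Loxl2 and Gm21451 together had 32 reads in WT and 379 in Chd8L+/- libraries. Their summed normalized count was 1.78, 8.12, 4.03, 11.9 and 7.52 in WT replicates 1 to 5, and in Chd8L+/- libraries its lowest value was 14.6, its median 57.6 and its highest 97.4. The groups did not overlap, at 6.67 ± 3.91 (SD, n = 5) and 53.6 ± 26.3 (SD, n = 7), and the log2 fold change was 2.83 ± 0.47 (SE). Chd8L+/- replicate 7, the lowest for the Entpd4 copies, was at 63.2 for this sum, above the Chd8L+/- median. By letter, the mean sum was 4.95 in WT and 60.1 in Chd8L+/- libraries of letter A, 9.71 and 97.4 in letter B, and 4.03 and 31.5 in letter C.

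Markers of fibroblasts, the gut cells best known for making LOXL2, also differed between these libraries. All 6 markers (Col1a1, Col1a2, Col3a1, Dcn, Lum and Pdgfra) were in the table and 0 of them were at 0 in every library. Their summed normalized count was 8.00, 307, 24.2, 27.8 and 42.6 in WT replicates 1 to 5, and 94.1, 97.8, 212, 522, 1219.6, 33.7 and 267 in Chd8L+/- replicates 1 to 7. All 4 fibroblast markers that passed the filter were higher in the Chd8L+/- mice, by 2.17 at the median on the log2 scale, against 0.01 over all genes tested. Of the 4, limma called 0 at an adjusted p of 0.05, beside 0.0234% of all genes tested. At an unadjusted p of 0.05 or less 3 were higher, beside 12.5% of all genes tested that were higher. Without WT replicate 2, limma called 3 of the 4, all higher, beside 27.6% of all genes in either direction. Among Chd8L+/- libraries, replicate 6 was lowest and replicate 5 highest in both the markers and the sum of Loxl2 and Gm21451. The other 5 came in the same order in both, except replicate 4, which was above replicates 3 and 7 in the markers and below them in the sum. WT replicate 2 stood apart from this order, since its marker sum of 307 lay above those of 5 of the 7 Chd8L+/- libraries and its sum of Loxl2 and Gm21451 was 8.12. Chd8L+/- replicate 7 had a nearby marker sum of 267 and a sum of Loxl2 and Gm21451 of 63.2. The order was not particular to Loxl2 and Gm21451. Among Chd8L+/- libraries the Entpd4 copies also followed the order of the markers, except that replicates 4 and 5 changed places and replicate 7 was lowest. The part of fibroblasts in the result was not tested. Endothelial markers (Pecam1, Cdh5, Kdr and Plvap) summed to between 47.1 and 179 in WT and between 39.8 and 139 in Chd8L+/- libraries. The 4 means did not all lie in the same direction, as the mean normalized count in WT and Chd8L+/- libraries was 42.6 and 30.1 for Plvap, 48.3 and 51.9 for Pecam1, 5.50 and 12.2 for Kdr, and 2.63 and 7.94 for Cdh5. Cdh5 was the only one whose genotypes did not overlap, on 13 WT reads and below the filter on low values, beside 0.515% of all genes tested without overlap. Leukocyte markers (Ptprc, Cd3e, Cd79a and Lyz2) summed to between 2524 and 3694 in WT and between 2281 and 4647 in Chd8L+/- libraries.

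**Figure D4:**
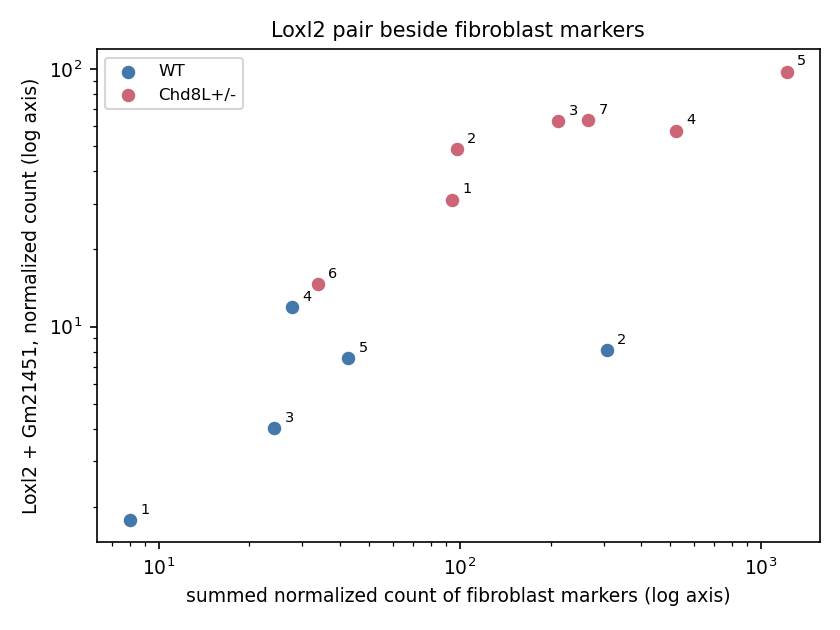
Summed normalized count of Loxl2 and Gm21451 against that of the 6 fibroblast markers, both on log axes, with 1 point for each library and its replicate number (WT in blue, n = 5; Chd8L+/- in red, n = 7). WT replicate 2 has a marker sum of 307 and a Loxl2 and Gm21451 sum of 8.12, and Chd8L+/- replicate 7, nearby on the horizontal axis at 267, has 63.2.

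All 4 members had a mean normalized count of at least 10 over the 12 libraries and so passed the filter, but Gm21451 and Loxl2 passed only through the Chd8L+/- libraries. The choice of members fixed their direction, so their calls are set beside the background and nothing is read from them. With limma, 0 of the 4 were called higher at an adjusted p of 0.05, where 0% of the 12808 genes tested were called higher and 0.0234% were called in either direction. At an unadjusted p of 0.05, 4 of 4 were higher, beside 12.5% of all genes tested that were higher and 24.3% that differed in either direction. With edgeR 0 of 4 were called higher, beside 0% of all genes, and with DESeq2 4 of 4, beside 1.8%. The genotypes did not overlap in 2 of the 4 members, Gm21451 and Loxl2, beside 0.242% of all genes tested that were higher without overlap.

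The members were then compared with each other among the Chd8L+/- libraries alone, where the difference between genotypes does not enter. The comparison is not free of the choice of members, as Gm21451 and Loxl2 passed the filter only through these libraries. The log2 sum of the Entpd4 copies and that of Loxl2 and Gm21451 had a Pearson r of 0.26 (n = 7, two-sided exact permutation test, p = 0.532) and a Spearman rho of 0.32 (n = 7, two-sided exact permutation test, p = 0.498). This was the only relation tested over the 7 libraries, so adjusted values are the same there, and no relation was detected. The order of the same libraries by fibroblast markers was also looked at, without a test. Replicate 7, lowest in the Entpd4 copies and second highest in Loxl2 and Gm21451, set this value: without it r was 0.80 (n = 6, two-sided exact permutation test, p = 0.00694), while Spearman rho was 0.83 and did not pass 0.05 (n = 6, two-sided exact permutation test, p = 0.0583). Each Chd8L+/- library was left out in turn, and replicate 7 was singled out after the values were seen. The p of 0.00694 is not adjusted for this choice. The libraries left without replicate 7 were 3 of letter C, 2 of letter A and 1 of letter B. Those of letter C lay at 806 to 824 in the Entpd4 copies and at 14.6 to 48.9 in Loxl2 and Gm21451. Those of letters A and B lay higher in both, at 994 to 1008 and at 57.6 to 97.4. The permutation test did not take letter into account, so this relation cannot be told apart from a difference between letters. Without any other single Chd8L+/- library, p for Pearson r was between 0.558 and 0.826 (two-sided exact permutation test). Without replicates 4 and 7, the libraries farthest from the median of the Entpd4 copies, r was 0.82 over 5 libraries.

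The genes on either side of the duplicated stretch were set beside the members. On the side of Entpd4, the nearest gene with values was Synb, which encodes the placental fusion protein syncytin-B, with 12.5 ± 4.38 (SD, n = 5) for WT and 14.8 ± 13.6 (SD, n = 7) normalized counts for Chd8L+/- mice. Its log2 fold change was -0.15 ± 0.54 (SE, limma adjusted p = 0.886), and it too has a copy in the stretch, Gm27179, with 74.5% of its windows of 75 bases shared with other genes. Slc25a37, the mitochondrial iron importer mitoferrin 1, comes next and shares 6.55% of its windows with other genes. Slc25a37 lay at 1569.9 ± 429.9 (SD, n = 5) normalized counts in WT mice and 1666 ± 571 (SD, n = 7) in Chd8L+/- mice, with a log2 fold change of 0.06 ± 0.24 (SE, limma adjusted p = 0.905). On the side of Loxl2, the nearest was R3hcc1, at a normalized count of 179 ± 11.5 (SD, n = 5) in WT mice and 209.8 ± 29.0 (SD, n = 7) in Chd8L+/- mice, with a log2 fold change of 0.22 ± 0.13 (SE, limma adjusted p = 0.309). None of the 3 was called, but limma also called 0 of the 4 members higher and 0% of all genes tested higher. The test therefore cannot tell these neighbours from the members.

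Within 1 Mb of the members, 23 other genes were tested and limma called 0 of them at an adjusted p of 0.05, while 2 were higher and 1 lower at an unadjusted p of 0.05 or less, beside 24.3% of all genes tested. edgeR called 0, beside 0.039% of all genes, and DESeq2 called 1, beside 6.29%. This was Adamdec1, a metalloprotease of gut macrophages and stromal cells, which had a log2 fold change of 1.94 ± 0.64 (SE, limma adjusted p = 0.125). The median log2 fold change of the 23 genes was 0.05, beside 0.01 over all genes tested. The genotypes overlapped in all 23, where only 0.515% of all genes tested were without overlap. Without WT replicate 2, limma called 3 of the 23, Adamdec1, Chmp7 and Polr3d, beside 27.6% of all genes. Between Chd8 and the members, the genotypes did not overlap in 0 of 136 genes tested, and beyond the members in 0 of 103. Both shares are close to the 0.515% of all genes, so nothing is read from them. On the other side of Chd8 they did not overlap in 5 of 183 (2.73%, beside 0.515% of all genes), among them Klhl33, higher, and Lrmda, Cgrrf1 and Ang, lower in Chd8L+/- libraries.

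**Figure D5:**
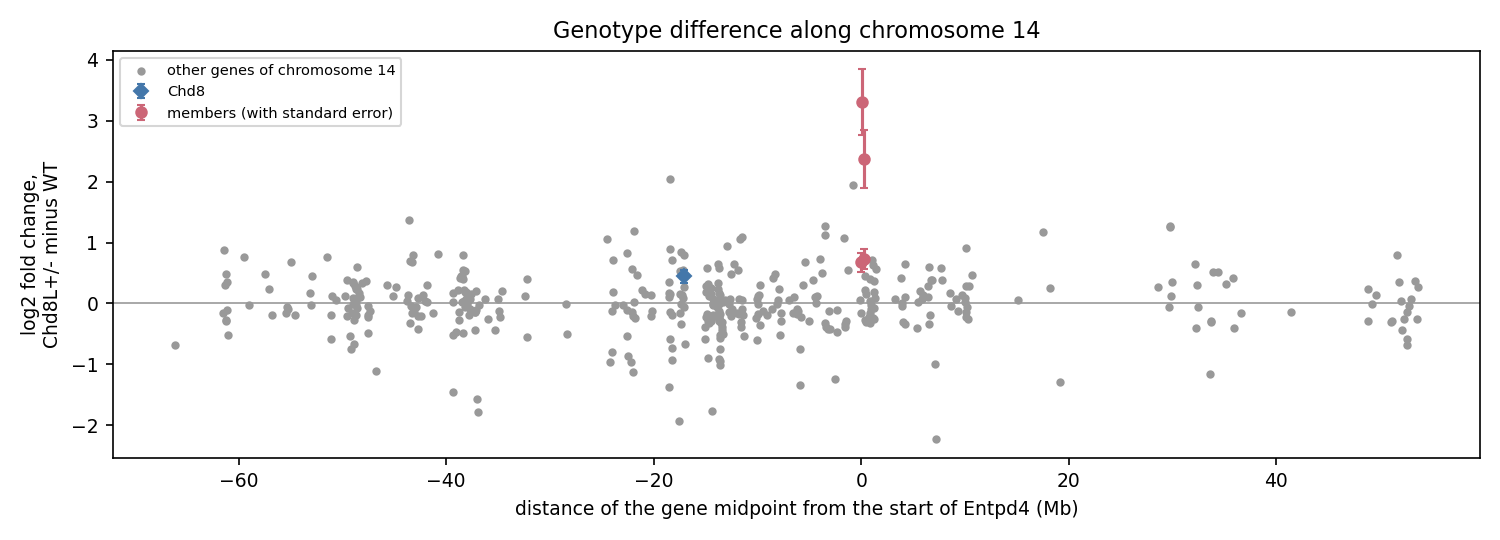
Log2 fold change between genotypes (Chd8L+/- minus WT) of each tested gene of chromosome 14 by its distance from the start of Entpd4 in Mb, with standard errors for the 4 members (red) and Chd8 (blue diamond). The members, at 0.67, 0.73, 2.37 and 3.30, lie 17.1 Mb beyond Chd8, among neighbours with a median of 0.05 within 1 Mb.

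Markers in which C57BL/6 substrains are known to differ were also examined. Of 6 such genes, 5 were tested (Nnt, Wdfy1, Ide, Fgfbp3 and Cyfip2). Crb1 was below the filter on low values, with 28 reads in WT and 13 in Chd8L+/- libraries. At an adjusted p of 0.05 limma called 0 of the 5, beside 0.0234% of all genes tested. At an unadjusted p of 0.05 it was 0 of the 5, beside 24.3% of all genes tested. Whether the genotypes differed in substrain was not tested. Nnt, the mitochondrial transhydrogenase that C57BL/6J lacks in working form, lay between 394 and 1200.5 normalized counts over the 12 libraries.

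The other enzymes of the family stood at very different levels in the gut epithelium. Per kb of exon, the mean normalized count of Entpd8, a surface enzyme of the liver and intestine, was 1004 in WT and 799.9 in Chd8L+/- libraries. Entpd5, an enzyme of the endoplasmic reticulum, was next at 723 and 639 per kb, and Entpd7, an intracellular enzyme of the small intestine, followed at 348 and 229.7 per kb. Entpd2 was at 170.1 and 135 per kb, and Entpd6 at 81.4 and 106 per kb. Entpd4b, at 39.0 and 64.4 per kb, and Entpd4, at 26.9 and 42.7 per kb, came below these and above Entpd1 (CD39), at 3.97 and 4.15 per kb, and Entpd3, at 3.004 and 2.38 per kb. Their place depends on the unknown split of reads, since the copies summed reached 65.9 per kb in WT, below Entpd6, and 107 per kb in Chd8L+/- libraries, where Entpd6 was at 106. The exon length of the members is that of all their transcripts joined.

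Of the 7 other family members, 6 were tested for a difference between genotypes. At an adjusted p of 0.05 limma called 0 of the 6, beside 0.0234% of all genes tested. The median log2 fold change of the 6 was -0.24, with 1 higher and 5 lower. Entpd6 had a log2 fold change of 0.37 ± 0.13 (SE, limma adjusted p = 0.134) and Entpd7 one of -0.65 ± 0.26 (SE, limma adjusted p = 0.164). These were the only 2 of the 6 with an unadjusted p of 0.05 or less, beside 24.3% of all genes tested. edgeR called 0 of the 6, beside 0.039% of all genes. Without WT replicate 2, limma called 4 of 7 tested, with Entpd6 higher and Entpd2, Entpd7 and Entpd8 lower, beside 27.6% of all genes. Next to this, the list of 20 genes that handle nucleotides and nucleotide sugars for the Golgi had a median log2 fold change of -0.08, with 7 higher, 13 lower and 0 called by limma. At an unadjusted p of 0.05, 4 of the 20 passed, all lower, beside 24.3% of all genes tested. They included Cmpk1, the kinase that recharges UMP to UDP, at a log2 fold change of -0.47 ± 0.16 (SE, limma adjusted p = 0.126). Slc35c2, a transporter of the Golgi, had a log2 fold change of -0.66, and Tmem241 one of -0.54. DESeq2 called Cmpk1, beside 6.29% of all genes, and edgeR called 0 of the 20, beside 0.039%. Without WT replicate 2, limma called 6 of the 20, 1 higher and 5 lower, beside 27.6% of all genes.

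Of the 4 other lysyl oxidases, 3 had values and lay near the level of Loxl2 in WT, and Lox had no values. Per kb of exon, the mean normalized count of Loxl2 was 0.930 in WT and 6.13 in Chd8L+/- libraries, and that of Gm21451 was 0.592 and 7.39. Loxl4 was at 0.877 and 0.276 per kb, Loxl3 at 0.531 and 1.70 per kb, and Loxl1 at 0.492 and 1.43 per kb. These 3 had too few reads for the test, and Loxl1 had a median of 0 in WT. Among 8 tested genes of collagen, matrix and the response to hypoxia that are linked to LOXL2, limma called 0, with a median log2 fold change of -0.32. Fn1, which encodes fibronectin, was at 1628 ± 1257 (SD, n = 5) normalized counts in WT and at 197 ± 203 (SD, n = 7) in the mutant (log2 difference -2.91 ± 0.80, SE, limma adjusted p = 0.121). P4ha1, a collagen prolyl hydroxylase, had a log2 fold change of -1.74 ± 0.39 (SE, limma adjusted p = 0.121), and Plod2, a lysyl hydroxylase, one of 1.20 ± 0.48 (SE, limma adjusted p = 0.156). At an unadjusted p of 0.05 these 3 were the ones below the threshold, 1 higher and 2 lower, beside 24.3% of all genes tested. DESeq2 called Fn1 and P4ha1, beside 6.29% of all genes, and edgeR called 0, beside 0.039%. Without WT replicate 2, limma called Fn1, P4ha1 and Plod2, beside 27.6% of all genes.

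The genes whose pattern over the 12 libraries was most like that of the members were found by the mean absolute difference of log2 profiles scaled to a mean of 0 and an SD of 1. The profile of the Entpd4 copies lay closest to 5730559C18Rik at 0.313, Eml1 at 0.326, Arhgef40 at 0.344, Lrfn4 at 0.346 and Tchp at 0.353, where the median of all genes was 1.12. Arhgef40 lies on chromosome 14 from 51984719 to 52006251, close to Chd8. The profile of Gm21451 lay closest to Loxl2, the gene with which it shares sequence, at 0.302. Among the closest genes that are no member were Sema6d at 0.367, Gm14322 at 0.393 and Celf5 at 0.407. Profiles over all 12 libraries include the difference between genotypes for which the members were chosen, so these distances are a description and the likeness between members is not read from them.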

How the data were processed

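Poly(A) RNA of gut epithelial cells from 5 WT and 7 Chd8L+/- mice was sequenced as 75-base single-end reads. The authors mapped reads to mm10 with Tophat2 and used the DESeq2 pipeline, and they deposited a normalized count signal per gene and library, that is, reads divided by a size factor. The counting program, annotation and use of strand are not given in the sources used here. All values (100%) were whole multiples of 1 read within a tolerance of 0.1 reads (largest deviation 0.000392), so reads were recovered. Totals of 15691662 to 20761315 reads set the precision, which counting error limits most for Gm21451 and Loxl2. A floor of 3 reads for a count of 0 covers counting error only.

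Libraries were grouped by label. Genotypes were compared with limma 3.58.1 (R 4.3.3; trend) on log2(value + 1) over the 12808 genes with a mean of at least 10, with Benjamini-Hochberg adjustment. Positions and transcripts came from GENCODE M21, in which 14028 of 14244 names matched by symbol. Transcripts were compared in windows of 75 bases. Alternatives were DESeq2 1.42.0 and edgeR 4.0.16 on recovered reads, quantile normalization, other pseudocounts (0.5 and 5), no filter or a minimum of 10 in each library, a block by replicate number or by letter, and each library left out. The steps were tested on simulated data. Genes named are the members, Chd8, the nearest genes with values, neighbours or listed genes called or without overlap, the 5 closest profiles and up to 3 genes a list by smallest p. Slc25a37, Adamdec1, Chmp7, Polr3d and the genes beyond Chd8 without overlap were chosen after their values were seen, as was the order of libraries by fibroblast markers. Members and lists were chosen with earlier results of these data known. Some genes that meet these rules are not reported here.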

Additional observations from a re-analysis of the deposited data

Results flagged for a closer look

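In 58 sets of values (a gene, a sum or a marker list in 1 genotype), 2 libraries stood apart from the rest of their genotype by Dixon's test at the 95% level, where chance gives 2.9. Entpd4 in Chd8L+/- replicate 7 was at 240.7 normalized counts, and the other 6 Chd8L+/- libraries lay between 328 and 413. Entpd8 in WT replicate 2 was at 1571 normalized counts, where the remaining 4 WT libraries were at 2704 to 3259.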

How the results depend on the processing

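The genotype difference of each member kept its direction under every alternative that could be computed. The log2 fold change was between 0.65 and 0.89 for the Entpd4 copies over 21 alternatives, and between 2.24 and 3.17 for Loxl2 and Gm21451 over 20. It was between 0.60 and 0.82 for Entpd4, 0.67 and 0.93 for Entpd4b, 1.92 and 3.84 for Gm21451 (1.92 with a pseudocount of 5) and 1.79 and 2.73 for Loxl2. With at least 10 in every library, Gm21451 and Loxl2 were not tested. Over all genes limma called 3. edgeR called 5, DESeq2 805 (230 higher and 575 lower), and the block by letter 451. Leaving out single libraries gave 0 to 3534 calls, the highest without WT replicate 2. Of the neighbours limma called 0, DESeq2 1, and limma with single libraries left out 0 to 3. Of the listed genes limma called 0, DESeq2 3, the block by letter 2 (Fn1 and P4ha1), and limma with single libraries left out 0 to 13, the highest without WT replicate 2 (3 higher and 10 lower). The Pearson r among Chd8L+/- libraries was 0.38 without a logarithm and between 0.074 and 0.80 with single libraries left out. Libraries with the same replicate number share only a number: the correlations of their deviations were 0.19, -0.34, -0.13, -0.17 and -0.23, and 1 pair correlated best with its own number. With the replicate block, 0 genes were called (2327 at an unadjusted p of 0.05), and the log2 fold change was 0.82 for the Entpd4 copies and 3.07 for Loxl2 and Gm21451. The few WT reads of Gm21451 (8) and Loxl2 (24) limit how precisely their fold changes can be known.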
